A study of Zea mays with 6 samples.

Results

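The transcriptome of the maize root tip was described in the 3 libraries of the group that the study labels DI. They were chosen by their sample labels alone and make up 3 of the 6 libraries of the series, whose other 3 come from root tips under negative pressure irrigation and are not described here. The study's design text speaks of following genes under different ways of watering. What DI stands for differs within the labels, where the treatment reads deficit irrigation and the description reads drip irrigation, and it is therefore left abbreviated. All 3 DI libraries are labelled as maize (Zea mays) root tip with no other treatment, and the labels used here give no cultivar, plant age or length of tip. Nothing in them tells whether each library had its own plants, so the spread between libraries may be partly technical. The library DI-2 carries the number 2 in its title and column name, while its description calls it repeat 3. The extraction protocol speaks of adipose tissue, which no maize sample can be.

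A growing root tip holds, from the end inwards, a root cap that covers and lubricates the tip, a meristem in which cells divide, and a zone in which they elongate by loosening their walls and taking up water. Dividing cells need ribosomes and histones in quantity, and elongating cells need wall enzymes, proton pumps and water channels. Root tips are also dense tissues that consume oxygen quickly, and plants short of oxygen are known to make ATP by glycolysis and to regenerate NAD+ by fermentation.

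Levels are given as FPKM, fragments scaled by the authors for transcript length and library size, which allows genes of different length to be compared. Where 3 values follow each other they belong to the libraries in the order DI-1, DI-2, DI-3. Of the 45953 genes in the deposited table, 21379 had a mean FPKM of at least 1 over the 3 libraries, the minimum used here for an expressed gene, and 14471 had no count in any library. A gene near 1 FPKM rested on a median of 96.0 counts per library. The libraries held 57792439 (DI-1), 63110564 (DI-2) and 71957443 (DI-3) counts. Because these are bulk samples, a larger number of cells of a type and more RNA per cell cannot be told apart.

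The most abundant messenger by mean FPKM in these root tips encoded glycine-rich protein1 (Zm00001d031168, chromosome 1, 180447018 to 180448137), described as a glycine-rich RNA-binding protein. Positions are printed as the table lists them, and the sources used here name no genome build. Glycine-rich protein1 had 2207 FPKM in DI-1, 2558 in DI-2 and 2006 in DI-3, a mean of 2257 ± 279 (SD, n = 3). Next came dehydrin13 (Zm00001d033483, chromosome 1, 263981642 to 263981944), a member of a family of hydrophilic proteins that accumulate in dehydrating cells, with 2582, 1769 and 2099 FPKM. The order of these genes differed between libraries, with dehydrin13 highest in DI-1 and DI-3 and glycine-rich protein1 highest in DI-2. Rank 3 was held by NaCl stress protein1 (Zm00001d024778, chromosome 10), a small membrane protein of the RCI2 type, with 1581, 2136 and 1850 FPKM. Responsive to abscisic acid15 (Zm00001d013568), also a glycine-rich RNA-binding protein, stood at rank 6 with 1574, 1432 and 1313 FPKM. The names of 3 of the genes given here record a response to drying, salt or abscisic acid. How common such names are over the whole table was not counted.

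**Figure D1:**
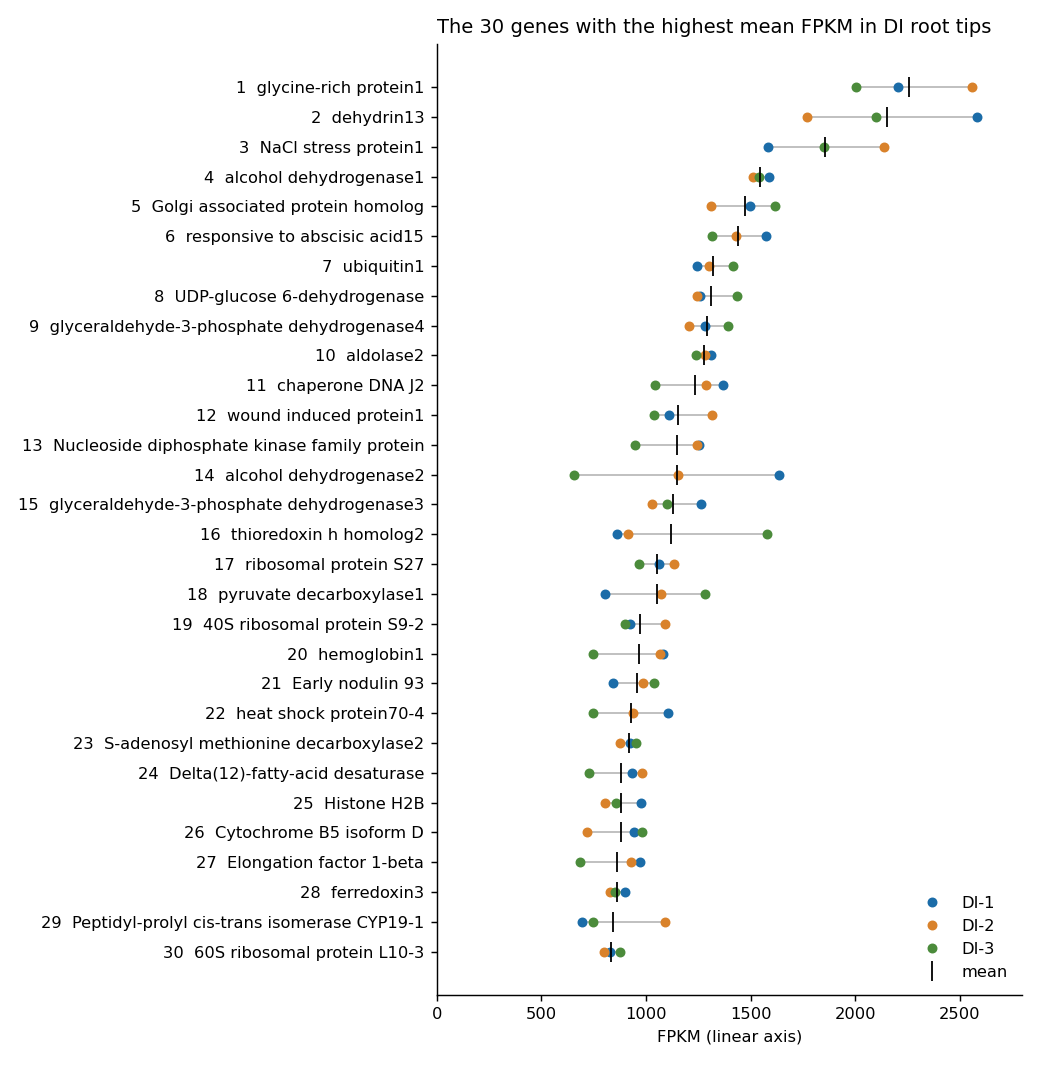
FPKM of the 30 genes with the highest mean in DI root tips, on a linear axis, with 1 point per library and a vertical tick at the mean. Most genes keep their 3 points close together, while alcohol dehydrogenase2 spans 654 to 1638 FPKM and thioredoxin h homolog2 spans 863 to 1576 FPKM.

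Enzymes of sugar breakdown and fermentation took 6 of the first 30 places. Alcohol dehydrogenase1 (Zm00001d033931, chromosome 1, 278821298 to 278825118), which turns acetaldehyde into ethanol, stood at rank 4 and had the lowest coefficient of variation (CV) of the 30, 2.60%, with 1589, 1510 and 1539 FPKM. Alcohol dehydrogenase2 (Zm00001d049059, chromosome 4) was the least steady of the 30, with 1638, 1154 and 654 FPKM and a CV of 42.8%. It was above alcohol dehydrogenase1 in DI-1 and below it in DI-2 and DI-3. Pyruvate decarboxylase1 (Zm00001d010588), which makes the acetaldehyde, ran the other way, with 803, 1072 and 1283 FPKM. Pyruvate decarboxylase3 (Zm00001d028759) had 912, 871 and 556 FPKM, so that DI-3 was highest for one pyruvate decarboxylase and lowest for the other. The glycolytic members of the 30 were steadier than alcohol dehydrogenase2 and either pyruvate decarboxylase, but not than alcohol dehydrogenase1. Glyceraldehyde-3-phosphate dehydrogenase4 (Zm00001d017121) had 1283, 1207 and 1391 FPKM and aldolase2 (Zm00001d012103) had 1312, 1283 and 1240 FPKM. Glyceraldehyde-3-phosphate dehydrogenase3 (Zm00001d051001) had 1261, 1028 and 1101 FPKM. Below the first 30, hexokinase and enolase were each carried mainly by 1 gene. Hexokinase7 (Zm00001d037689), of the enzymes that phosphorylate glucose, had 533, 516 and 624 FPKM and held 78.8% of its family's 9 genes. Enolase1 (Zm00001d045431) had 855, 728 and 869 FPKM and held 76.6% of 7 genes. Pyruvate kinase was more evenly shared, and pyruvate kinase2 (Zm00001d023379), with 657, 587 and 715 FPKM, held 44.2% of 13 genes. Cytoplasmic malate dehydrogenase4 (Zm00001d032695) had 751, 522 and 645 FPKM. Lactate dehydrogenase1 (Zm00001d014944), the other route that regenerates NAD+ from pyruvate, had 271, 157 and 212 FPKM.

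Families whose members other plants are known to induce when oxygen is short ranged from very abundant to moderate. Hemoglobin1 (Zm00001d048020), a non-symbiotic haemoglobin that scavenges nitric oxide, stood at rank 20 with 1080, 1068 and 746 FPKM. Of 5 genes described as hypoxia-responsive or hypoxia-induced proteins, all were expressed, and the leading one (Zm00001d017060) had 627, 722 and 890 FPKM. Of 6 plant cysteine oxidase genes, whose products act as oxygen sensors in Arabidopsis, 4 were expressed, led by Zm00001d039166 with 71.8, 57.9 and 46.7 FPKM. The haemoglobin, hypoxia-responsive and plant cysteine oxidase families together hold 14 genes, of which 12 were expressed and 4 had a mean of 100 FPKM or more. These families were added to the lists after matches of the first patterns were read. Among all 39272 protein-coding genes, 53.7% were expressed and 878 had a mean of 100 FPKM or more. The labels give no oxygen level, and with a single group these are levels, with no measure of induction.

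The remaining places among the first 30 were spread over many tasks. Protein synthesis supplied 4 genes, among them ribosomal protein S27 (Zm00001d053239) with 1063, 1135 and 964 FPKM. Protein turnover and folding supplied 3, led by ubiquitin1 (Zm00001d015327) with 1246, 1303 and 1415 FPKM. Another was heat shock protein70-4 (Zm00001d041550), a chaperone, with 1106, 938 and 746 FPKM. Also among them was a cyclophilin (Zm00001d016661), a prolyl isomerase, with 695, 1090 and 744 FPKM. UDP-glucose 6-dehydrogenase (Zm00001d013245), which makes the UDP-glucuronate used for wall polysaccharides, stood at rank 8 with 1258, 1245 and 1433 FPKM. S-adenosyl methionine decarboxylase2 (Zm00001d003157), an enzyme of polyamine synthesis, had 923, 876 and 952 FPKM. A wound-induced protein of the Bowman-Birk protease inhibitor type (wound induced protein1, Zm00001d008548) had 1110, 1314 and 1037 FPKM. Every one of the 30 stood within the first 52 genes of each library, and their CV had a median of 11.6% and a range of 2.60% to 42.8%.

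The messenger pool was broad. The top 10 genes held 3.14 ± 0.0550% of all FPKM (SD, n = 3), the top 100 held 15.6 ± 0.351% and the top 1000 held 48.2 ± 0.160%. It took 1107 genes to reach 50% of the summed mean FPKM and 9272 genes to reach 90%. Only 18 genes had a mean of 1000 FPKM or more, 881 had 100 or more and 8595 had 10 or more. The median expressed gene had 7.18 FPKM. Counts, which are not divided by transcript length, were less concentrated in the longer lists, with 40.5 ± 0.537% in the 1000 genes with the most counts. The top 10 genes by counts held 3.18%, close to the share by FPKM. The lists by FPKM and by counts differed more toward the top. They shared 657 of 1000 genes, 60 of 100, 13 of 30 and 5 of 10, and their first genes differed. The ranks given above therefore hold for FPKM alone. The top 1000 protein-coding genes were shorter than expressed genes in general, with a median annotated span of 2301 bases for 997 genes, against 3635 bases for all 21091 expressed protein-coding genes. Lists of the top 100 made separately from each library had 75 genes in common, and lists of the top 1000 had 789.

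**Figure D2:**
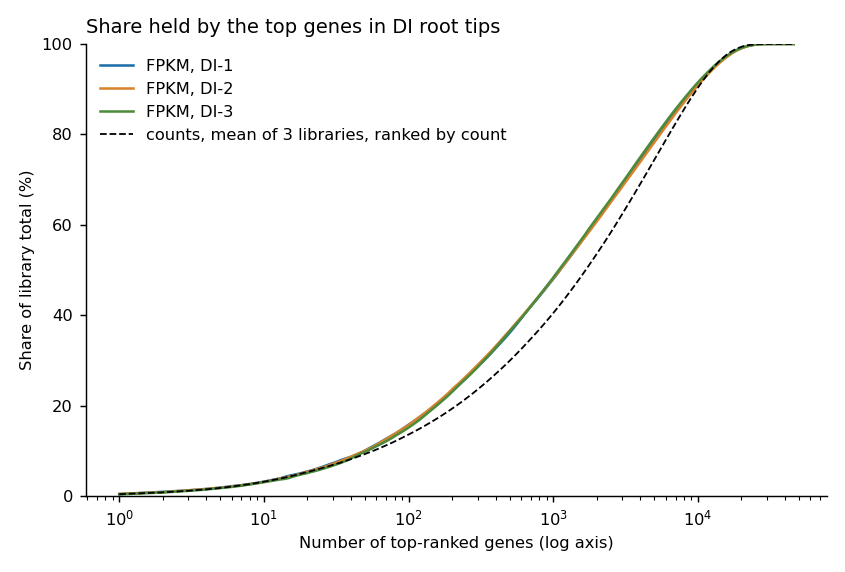
Share of the library total (%, vertical axis) held by the top-ranked genes (number of genes, log axis). The solid FPKM lines of the 3 libraries lie on each other and reach 48.0%, 48.1% and 48.3% at 1000 genes, and the dashed line for counts lies below them at 40.5%.

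The share of genes expressed differed widely between annotated transcript types. Of 39272 protein-coding genes 21091 were expressed, or 53.7%, and they held 99.4 ± 0.0551% of all FPKM. Of 2532 long intergenic non-coding RNA (lincRNA) genes 163 were expressed, or 6.44%. The expressed share was 15.3% of 465 small nucleolar RNA genes, 8.99% of 178 small nuclear RNA genes, 8.44% of 154 miRNA genes, 2.67% of 225 rRNA genes and 0.394% of 2792 tRNA genes. The libraries were made from poly(A) RNA, and most of these RNAs carry no stable poly(A) tail, so their low shares describe what such libraries hold. Among protein-coding genes, 61.4% of the 30235 with a product description were expressed, against 28.1% of the 9037 without one. On the 10 chromosomes the expressed share of protein-coding genes lay between 51.1% on chromosome 4 and 57.0% on chromosome 5. Of 229 mitochondrial genes 14 were expressed and of 179 plastid genes none, the plastid genes holding 0.000261% to 0.000282% of the counts of a library. These organelle values too describe what poly(A) libraries hold and are no measure of organelle activity.

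**Figure D3:**
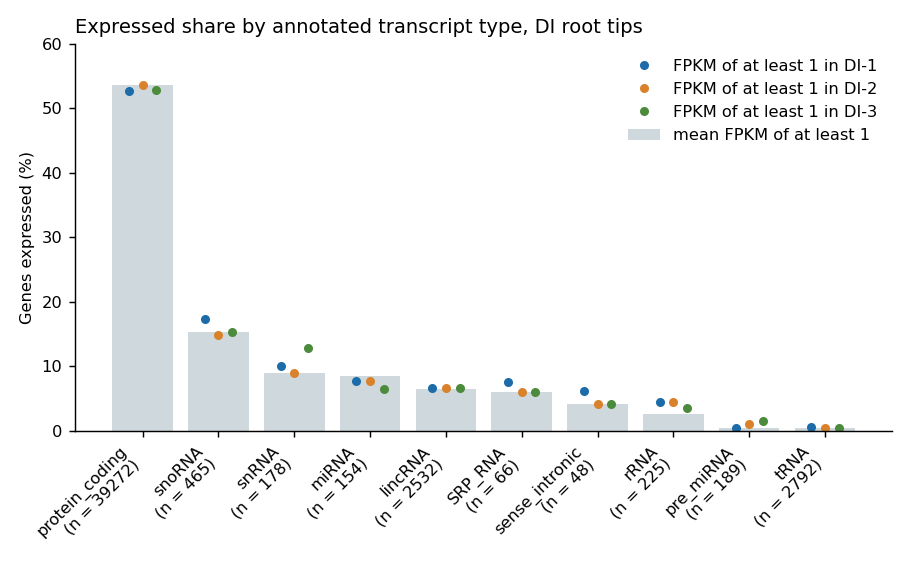
Share of genes expressed (%) for the 10 annotated transcript types with at least 40 genes. Bars count genes whose mean FPKM was at least 1, points count genes with at least 1 FPKM in the single library, and protein-coding genes stand at 53.7% while the next type, small nucleolar RNA, stands at 15.3%.

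A few non-coding RNAs stood among the most abundant transcripts of the tip. The lincRNA Zm00001d000508 (chromosome 3, 36020109 to 36020746) ranked 36 of all genes, with 709, 881 and 737 FPKM in DI-1, DI-2 and DI-3. Zm00001d022856 on chromosome 1 had 149, 180 and 346 FPKM and Zm00001d027037 on chromosome 4 had 103, 132 and 147 FPKM, both highest in DI-3. These 3 were the only lincRNAs above a mean of 100 FPKM. The entry zma-MIR159a of the type miRNA led that type with 15.8, 24.9 and 28.5 FPKM, while the entry ENSRNA049997483 of the type pre_miRNA, with the same name and the same coordinates, had 0.5, 0.63 and 1.3 FPKM. How counts were divided between these entries is uncertain, and neither is a level of the mature miRNA. The single RNA annotated as ncRNA, enod40, an early nodulin gene known from legume nodules, had 11.3, 16.4 and 35.3 FPKM. Mitochondrial 26S ribosomal RNA (ZeamMr002) led the rRNAs with 29.9, 44.7 and 44.1 FPKM.

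Protein synthesis had the largest summed level among the tasks covered by the family lists. The 500 genes described as cytosolic ribosomal proteins, of which 352 were expressed, summed to 51338, 54841 and 52166 FPKM and held 10.4% of all FPKM. The leading ribosomal gene, S27, held 2.07%, 2.07% and 1.85% of that sum, and 165 of the 500 stood at 100 FPKM or more. Together with translation factors and translationally controlled tumour proteins the share was 11.8 ± 0.437%. Histones formed another large block. Histone H2B summed to 4568, 3661 and 3907 FPKM over 14 genes, histone H4 to 3411, 2999 and 2607 FPKM over 17 genes, and histone H2A to 3267, 3116 and 2787 FPKM over 36 genes. Core histones are made mainly in dividing cells, and their summed levels stood far above those of genes of DNA replication. PCNA, the sliding clamp of DNA replication, summed to 56.8, 59.5 and 45.5 FPKM over 2 genes, and the MCM helicase genes to 138, 140 and 97.6 FPKM over 20 genes. Of 85 cyclin genes 55 were expressed, and together they summed to 428, 472 and 405 FPKM.

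Transcription factors, identified by gene names of the form family and number, counted 2168 genes, of which 1290 were expressed and 32 had a mean of 100 FPKM or more. Together they held 4.38% of the summed mean FPKM. The AP2-EREBP family, which includes the ethylene response factors, had the largest sum, 4599 FPKM over 191 genes, followed by NAC with 1969 FPKM over 122 genes and WRKY with 1628 FPKM over 120 genes. The leading factor, AP2-EREBP-transcription factor 148 (Zm00001d009103), stood at rank 40 of all genes with 474, 734 and 1029 FPKM. It was highest in DI-3 and lowest in DI-1, and so was NAC-transcription factor 60 (Zm00001d013003), the leading NAC, with 320, 399 and 496 FPKM. The leading WRKY factor, WRKY-transcription factor 48 (Zm00001d015515), was steadier with 175, 189 and 197 FPKM.

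Root markers ranged from above 100 FPKM to below 1 FPKM. The leading PLETHORA or AINTEGUMENTA type gene, described as AIL5 (Zm00001d002025), had 129, 197 and 123 FPKM, and BABY BOOM 1 (Zm00001d017207) had 25.8, 39.0 and 31.3 FPKM. In Arabidopsis these factors maintain the root meristem. Rootless with undetectable meristems1 (Zm00001d043878), an Aux/IAA gene needed in maize for seminal and lateral root initiation, had 15.9, 19.8 and 25.1 FPKM. The other gene of the rootless list (Zm00001d027679) held 12.5% of the list's summed mean FPKM. Scarecrow1 (Zm00001d052380), the endodermis patterning factor, had 1.11, 1.84 and 0.76 FPKM. Of the root hair genes, roothair defective3 (Zm00001d028826), a COBRA-like protein, had 21.4, 31.6 and 52.5 FPKM. Roothair defective1 (Zm00001d033303), an exocyst subunit, had 11.4, 8.32 and 9.91 FPKM. None of the 6 Casparian strip membrane protein genes, markers of differentiated endodermis, reached a mean of 1 FPKM, and their sum was at most 4.33 FPKM. Of 50 genes named or described as scarecrow, scarecrow-like or shortroot 14 were expressed, with sums of 74.9, 106 and 92.0 FPKM. This list takes in scarecrow-like factors, so its sum is no level of the patterning factors themselves. A gene described as SHORT-ROOT (Zm00001d006721) had 0.54, 0.86 and 0.58 FPKM. Of 18 WUSCHEL-related homeobox genes 5 were expressed, with sums of 22.6, 38.5 and 55.8 FPKM. The member named WUSCHEL-homeobox-transcription factor 5b (Zm00001d042821) was not among the expressed, with 0.39, 0.1 and 0.29 FPKM. Of 18 genes named or described as O-methyltransferase ZRP4, 10 were expressed, with sums of 281, 227 and 275 FPKM. Root preferential1 (Zm00001d049020), of the same list, had 0.71, 0.65 and 0.07 FPKM.

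Zeins and oleosins were at or near 0, while some markers of leaf and pollen and 1 other seed storage gene were expressed. None of 19 zein genes, the storage proteins of maize endosperm, and none of 7 oleosin genes, the seed oil-body proteins, was expressed, and the zein genes summed to at most 0.120 FPKM in any library. Of 9 genes of globulins and other storage proteins 1 was expressed, and the sums were 6.61, 4.28 and 6.13 FPKM. Rubisco small subunit, a leaf photosynthesis gene, summed to 3.74, 10.3 and 3.85 FPKM over 2 genes. The 32 light-harvesting chlorophyll protein genes summed to 102, 123 and 75.3 FPKM, and 15 of them were expressed. The leading one (Zm00001d001857) had 32.7, 3.03 and 30.2 FPKM, so DI-2, the highest library for the family, was the lowest for its leading gene. The 38 genes with pollen in their description summed to 114, 118 and 104 FPKM, and 16 of them were expressed, led by Zm00001d041725, a LIM-domain factor, with 31.4, 23.3 and 22.5 FPKM. The light-harvesting and pollen sums are of the size of the sums of the scarecrow, scarecrow-like and shortroot list given above.

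Families named in the product descriptions differed widely in how much of their level lay in 1 gene. The marker families given above were left out of the following counts. Of the 87 other families with at least 2 genes and a summed mean of at least 10 FPKM, the leading gene held more than 50% of the sum in 36 and more than 90% in 6. The 36 make up 41.4%, against 35.0% with the patterns as first written. After matches were read, 8 of the 87 families were added. They were haemoglobin, hypoxia-responsive, plant cysteine oxidase, UDP-glucose 6-dehydrogenase, S-adenosylmethionine decarboxylase, RCI2, respiratory burst oxidase and malate dehydrogenase. Haemoglobin is 1 of the 6 above 90%. The median leading gene held 44.2%. Some of the 87 families gather different proteins, such as the ribosomal proteins, the benzoxazinoid enzymes and the vacuolar H+-ATPase subunits. In those the share of the leading gene is not a share among copies of the same gene. The same gene led in all 3 libraries in 58 families. In 49 families the lowest value of the leading gene lay above the highest value of the second. The leading and the second gene lay on the same chromosome in 20 families and within 100 kb of each other in 4. How often other pairs of family members do so was not counted.

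In 6 families nearly all of the level lay in 1 gene. Of 4 phosphoglycerate kinase genes, Zm00001d015376 held 98.1 ± 0.313% of the family's FPKM (SD of the shares, n = 3), with 716, 654 and 758 FPKM. Lactate dehydrogenase1 held 95.8 ± 2.12% of 2 genes, and catalase1 (Zm00001d014848), which breaks down hydrogen peroxide, held 94.4 ± 4.34% of 3 genes. Of 17 ACC oxidase genes, which catalyse the last step of ethylene synthesis, 8 were expressed and Zm00001d011208 held 93.3 ± 1.04%, with 856, 774 and 854 FPKM. Of 16 phosphate transporter genes, phosphate transporter protein2 (Zm00001d032850) held 92.5 ± 1.46%, with 375, 458 and 532 FPKM. Hemoglobin1 held 91.1 ± 1.61% of 3 haemoglobin genes. Each of these genes led in all 3 libraries.

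Other families were shared between a pair of genes. Sucrose synthase, which splits sucrose for use by the cell, was carried by shrunken1 (Zm00001d045042) with 876, 682 and 665 FPKM and sucrose synthase1 (Zm00001d047253) with 545, 434 and 500 FPKM, together 98.8% of 18 genes. Aldolase2 and aldolase1 (Zm00001d042453) held 95.3% of 11 aldolase genes. UDP-glucose 6-dehydrogenase was shared by Zm00001d013245 and Zm00001d034072, the second of which had 598, 770 and 832 FPKM. Tonoplast aquaporins, which let water into the vacuole, were carried by tonoplast intrinsic protein5 (Zm00001d026177) with 289, 386 and 593 FPKM and TIP1-1 (Zm00001d027652) with 284, 252 and 229 FPKM, together 95.1% of 17 genes. The tonoplast genes were close to each other in DI-1 and farthest apart in DI-3.

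In some families no gene held a large share. The leading gene held 12.2% of 144 class III peroxidase genes, 13.1% of 85 glutathione transferase genes, 13.4% of 17 histone H4 genes and 10.2% of 43 vacuolar H+-ATPase genes. The vacuolar H+-ATPase genes take in different subunits of the pump, so a low share is not evenness among copies. Family size alone did not order the families, since the leading gene held 70.3% of 29 HSP70 genes and 65.5% of 47 lipid transfer protein genes. Plasma membrane aquaporins had no constant leader. Zm00001d019565, described as PIP2-6, had 64.9, 132 and 95.2 FPKM and Zm00001d019563 on the same chromosome, described as PIP2-1, had 57.8, 98.2 and 110 FPKM. The highest plasma membrane aquaporin in DI-1 was plasma membrane intrinsic protein1 (Zm00001d002690), named after its values were seen, with 92.5, 80.7 and 79.6 FPKM. Xyloglucan endotransglucosylases, which cut and rejoin wall xyloglucan, summed to 678, 916 and 1306 FPKM over 33 genes, and the leading gene (Zm00001d002410) had 106, 221 and 251 FPKM. Alpha expansins, which loosen walls in acid, summed to 274, 121 and 119 FPKM over 41 genes, led by Zm00001d040379 with 85.2, 38.3 and 26.6 FPKM. Beta expansins summed to 213, 184 and 225 FPKM over 45 genes. Alpha expansins were highest in DI-1, while beta expansins and xyloglucan endotransglucosylases were highest in DI-3. Of 45 cellulose synthase genes 17 were expressed, led by cellulose synthase8 (Zm00001d019317) with 104, 113 and 127 FPKM.

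Among the hormone families, S-adenosylmethionine synthase, which makes the common precursor of ethylene and polyamines, had the highest sum. It reached 2286, 1804 and 1806 FPKM over 5 genes. The level was shared by Zm00001d010920 with 873, 641 and 512 FPKM and Zm00001d024754 with 661, 637 and 628 FPKM. ACC synthase, which commits the precursor to ethylene, was far lower than ACC oxidase, with 57.1, 65.6 and 99.1 FPKM over 5 genes. Among auxin genes, Aux/IAA repressors summed to 622, 880.4 and 963 FPKM over 40 genes, led by the gene described as IAA15 (Zm00001d039624) with 135, 221 and 272 FPKM. Auxin response factors, the regulators that Aux/IAA proteins repress, summed to 436, 462 and 394 FPKM over 39 genes. The auxin efflux carrier described as component 2 (Zm00001d046893) had 30.01, 15.4 and 11.7 FPKM, highest in DI-1. PIN-formed protein1 (Zm00001d044812) had 2.65, 6.26 and 5.41 FPKM, lowest in DI-1.

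Among the phosphate, ammonium, nitrate, potassium and sulfate carriers, phosphate transporter protein2 was the only gene with a mean of 100 FPKM or more. Ammonium transporter1 (Zm00001d025831) had 67.1, 70.1 and 77.7 FPKM, and the 75 nitrate and peptide transporter genes, 41 of them expressed, summed to 432, 416 and 525 FPKM. Glutamine synthetase, which assimilates ammonium, had a steady and an unsteady leading gene. Glutamine synthetase5 (Zm00001d051804) had 183, 206 and 194 FPKM, while glutamine synthetase6 (Zm00001d028260) had 241, 104 and 77.6 FPKM and was highest in DI-1. In the cytoskeleton, alpha tubulin4 (Zm00001d013367), a microtubule subunit, had 489, 518 and 682 FPKM and held 49.6% of 9 alpha tubulin genes. Respiratory burst oxidase B (Zm00001d023859), of the NADPH oxidases that make superoxide at the plasma membrane, had 227, 250.4 and 378 FPKM.

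**Figure D4:**
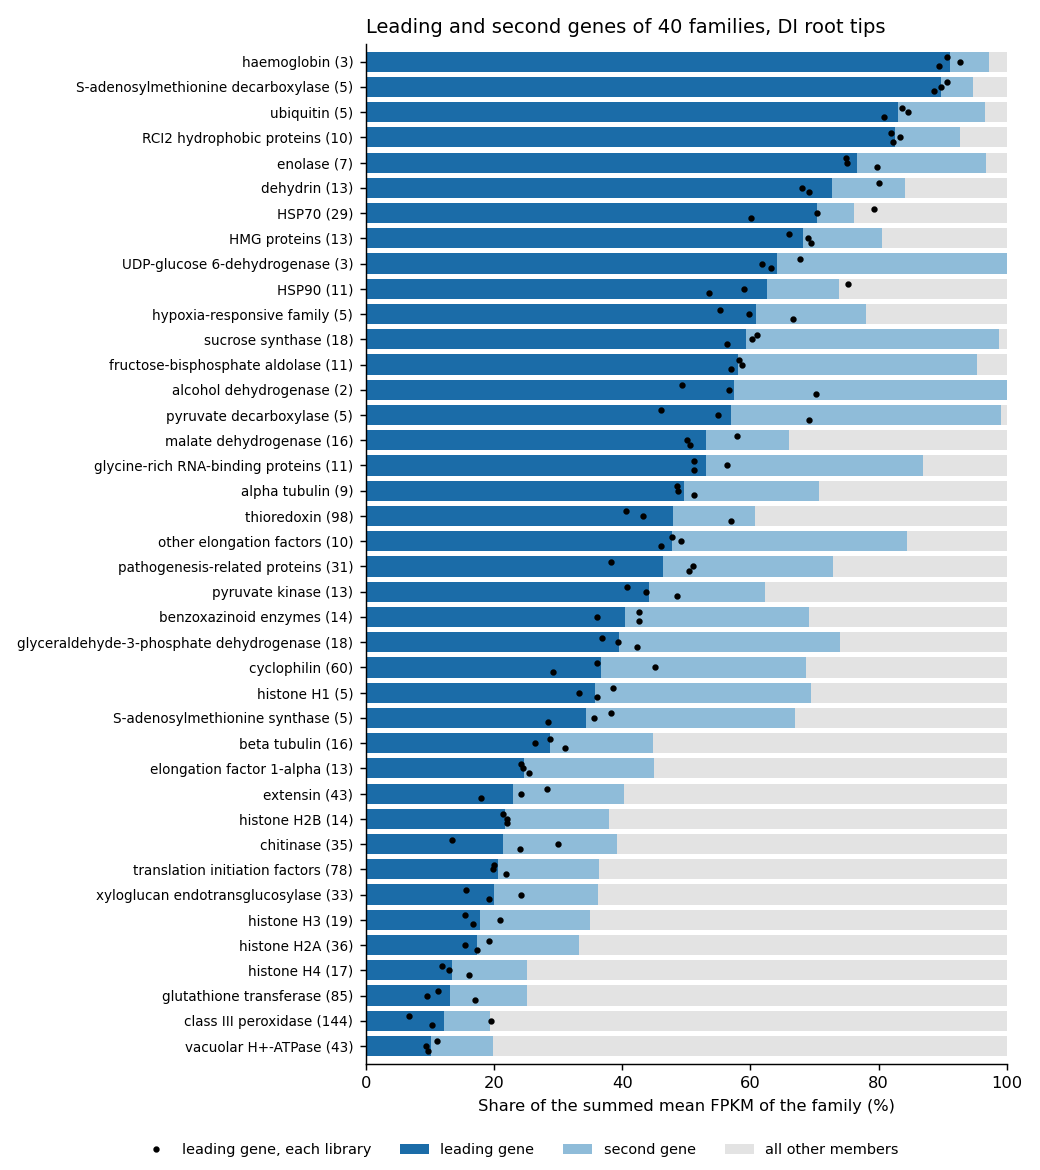
Shares of the summed mean FPKM (%) of the leading gene, the second gene and all other members in the 40 families with the highest sums, leaving out cytosolic ribosomal proteins and marker families, with the number of genes in brackets and black points for the leading gene's share in each library. The leading gene's share runs from 91.1% in haemoglobins to 10.2% in vacuolar H+-ATPases.

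Some abundant genes had a related gene as neighbour. Of 50 pairs of adjacent protein-coding genes that both stood in the top 1000, 17 shared a family or a description apart from its number, which takes in copies but also histone H2A beside H2B and different ribosomal proteins. The same share among all 39260 adjacent pairs was not counted, so whether 17 of 50 is high is not known. Cyclophilins Zm00001d016660 and Zm00001d016661 lie 34118 bases apart on chromosome 5 and were highest in different libraries, the first with 514, 597 and 1092 FPKM and the second with 695, 1090 and 744 FPKM. Peroxidase3 (Zm00001d022457) and Zm00001d022456 lie 9400 bases apart on chromosome 7 and were both highest in DI-2 and lowest in DI-1, with 180, 530 and 302 FPKM and with 97.7, 300.1 and 203 FPKM. The pathogenesis-related protein 10 genes Zm00001d028814 and Zm00001d028815 lie 21748 bases apart on chromosome 1 and had 472, 500 and 652 FPKM and 276, 280.4 and 377 FPKM. Near-identical copies can share reads, so the split within such a pair is uncertain while the sum is less so.

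The 3 libraries were alike over the whole table and differed in particular groups. Over the 21379 expressed genes, Pearson correlations of log2(FPKM + 1) were 0.944 for DI-2 with DI-1, 0.931 for DI-3 with DI-1 and 0.954 for DI-3 with DI-2. Spearman correlations were 0.931, 0.915 and 0.940. These are correlations across genes, which are not independent replicates and share annotation, transcript length and sequencing method. As a check for a library deposited more than once, the median chi-square of a gene's 2 counts was 22.5 to 25.8 in the 3 pairs, against 0.455 with counting noise alone, and each library was counted as 1 sample. Reads are not independent molecules, so this is a description and no test. The common biological coefficient of variation, the spread between libraries beyond counting noise, was 34.8%. The median CV was 22.9% for genes of 1 to 10 FPKM, 15.4% for 10 to 100, 13.9% for 100 to 1000 and 11.5% above 1000.

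Of the expressed genes, 2838 or 13.3% had a range of at least 1 on the log2(FPKM + 1) scale. That is at least a doubling of FPKM + 1 between their lowest and highest library. For genes of low FPKM it takes clearly more than a doubling of FPKM itself, so the cut differs with level. In 1258 of the 2838 genes DI-1 was the library farther from the other 2, in 982 it was DI-3 and in 598 it was DI-2. Without DI-1 1113 genes had such a range, without DI-2 1871 and without DI-3 1321, a range over 2 libraries being the smaller by construction. The share of varying genes differed between tasks. It was 3.25% of 431 expressed genes of protein synthesis and 6.17% of 81 chromatin genes. It was 55.8% of 104 defence genes, 47.5% of 120 wall genes and 59.1% of 22 aquaporin genes. Level differed between these groups too, and 14.7% of all genes at 1 to 10 FPKM varied against 8.81% of those at 100 to 1000 FPKM.

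Root cap genes had the largest ratio of highest to lowest library, 3.35, among families with at least 5 expressed genes and a summed mean of at least 50 FPKM. Root-cap periphery1 (Zm00001d041984) had 160.1, 22.9 and 6.43 FPKM, and a root cap-specific protein (Zm00001d045420) had 106, 59.5 and 31.9 FPKM. Root cap protein1 (Zm00001d036091) was steadier with 109, 96.7 and 78.3 FPKM. A second root cap-specific protein (Zm00001d004725) had 11.98, 0.14 and 0.19 FPKM, and root cap periphery gene2 (Zm00001d052527) had 4.09, 0.24 and 0.03 FPKM. All 5 root cap genes were highest in DI-1, and their sum was 391, 179 and 117 FPKM. Alpha expansins and vacuolar H+-ATPase genes were also highest in DI-1, these ATPase genes with 1853, 1213 and 1155 FPKM over 43 genes. Whether the amount of root cap in each library has a part in these differences was not tested.

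Another set of families was lowest in DI-1. Small heat shock proteins, chaperones that bind unfolding proteins, summed to 145, 361 and 366 FPKM over 25 genes, and 14 of the 20 expressed members varied. The 25 matches take in a thylakoid lumenal 16.5 kDa protein (Zm00001d014718), which had 0.28, 0.61 and 0.65 FPKM. Metallothioneins, which bind metal ions, summed to 425, 699 and 913 FPKM over 9 genes. The highest means were nearly tied, with 88.5, 302 and 276 FPKM for Zm00001d035662 and 192, 179 and 292 FPKM for Zm00001d048611, the second of which was lowest in DI-2. Xyloglucan endotransglucosylases, given above, were likewise lowest in DI-1 and highest in DI-3, and 16 of 21 expressed members varied. Germin-like proteins were lowest in DI-2, with 485, 271 and 569 FPKM over 43 genes. Over all expressed genes, the signed deviation from the gene's own mean had a median of -0.02 in DI-1, 0.03 in DI-2 and -0.02 in DI-3 on the log2(FPKM + 1) scale. Rises and falls cancel in such a median, so it does not measure how far a typical gene or family moved.

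**Figure D5:**
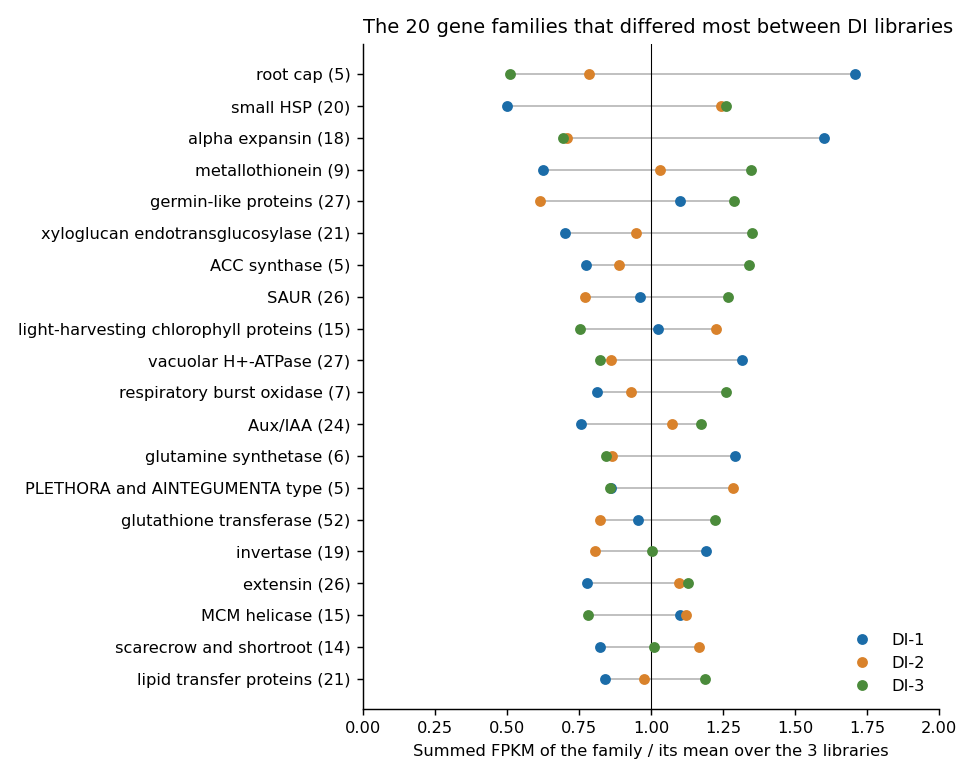
Summed FPKM of a gene family in each library divided by its mean over the 3 libraries, for the 20 families with the largest ratio of highest to lowest library among those with at least 5 expressed genes (number in brackets) and a summed mean of at least 50 FPKM. Root cap genes, alpha expansins and vacuolar H+-ATPases are highest in DI-1, and small heat shock proteins, metallothioneins and xyloglucan endotransglucosylases are lowest there.

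Among genes with a mean of at least 100 FPKM and a description, 10 had the largest ranges. A quinone oxidoreductase homolog (Zm00001d025166) was lowest in DI-1, with 36.6, 247 and 259 FPKM. IAA24 (Zm00001d018973), an auxin-responsive repressor, had 45.2, 179 and 157 FPKM, and an AP2/EREBP factor (Zm00001d026271) had 37.9, 128 and 168 FPKM. In the other 7 genes DI-1 was the highest library. They include 3 proteins of chitin-binding or chitin-cleaving families, which act in defence. The hevein-like preproprotein (Zm00001d048949) had 342, 25.4 and 70.2 FPKM. Chitinase2 (Zm00001d036370) had 314, 29.5 and 86.0 FPKM and endochitinase A (Zm00001d003190) had 305, 46.6 and 72.2 FPKM. Beta-glucosidase 17 (Zm00001d041173) had 358, 97.6 and 21.6 FPKM. The others were stress-induced protein1 (Zm00001d021901), an RD22-type BURP protein (Zm00001d031909) and an aluminum-induced protein (Zm00001d004729). The leading chitinases behaved differently, with 420, 665 and 537 FPKM for Zm00001d018966 and a nearly constant 445, 449 and 448 FPKM for endochitinase precursor4 (Zm00001d017152).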

How the data were processed

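Poly(A) RNA of maize root tips had been sequenced as read pairs on an Illumina NovaSeq instrument, per the labels' protocols. FastQC 0.10.1, HISAT2 2.0, StringTie 1.3.4 and edgeR (no version) are named in the submitters' processing notes, and the genome build and strand handling are not given in the sources used here. The deposited values are estimated counts, all whole, and FPKM, which the authors scaled for transcript length and library size, for 45953 genes. Only the 3 DI libraries were used, with 6 value columns of the other group not used here. Genes that overlap, or are close copies, can have exchanged counts.

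Shares, ranks, means, SDs and correlations were computed with Python 3.11.15, pandas 2.3.3, numpy 2.4.6 and scipy 1.17.1, and figures were drawn with matplotlib 3.10.9. TMM factors and the biological coefficient of variation came from edgeR 4.0.16 in R 4.3.3, checked on simulated data. With 1 group no test was made, and no sequences are printed. An expressed gene had a mean FPKM of at least 1, and a pseudocount of 1 was used on the log2 scale. Families were found by patterns in names and descriptions, in 102 families with 2792 genes. After their matches were read 22 patterns were edited and 8 were added. The members, lists and patterns were chosen with earlier results of these data known.

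Named genes are the top 30 by mean FPKM, each family's leading and second gene, the markers, the 3 most abundant lincRNAs and the 3 most abundant of each other non-coding type, and the 10 described genes above 100 FPKM with the largest range. Others named were chosen after their values were seen. Counts of 0 allow up to 3 counts, or 0.0417 to 0.0519 CPM, and this covers counting error only. Alternatives covered medians, counts in place of FPKM, other thresholds, other family groupings, TMM scaling and each library left out.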

Additional observations from a re-analysis of the deposited data

How the results depend on the processing

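No paired analysis was possible because a single group was described and no result comes from a test. Of the alternatives for main results, 26 moved a value by less than the spread between libraries, or a count by less than 1.5 times, and 31 moved it further. Ranking by counts gave 13.6% for the top 100 genes and 40.5% for the top 1000. The expressed share depended on the threshold. For protein-coding genes it was 68.2% at a mean of 0.1 FPKM, 33.1% at 5 FPKM, 62.1% with 10 counts in every library and 49.2% with 1 FPKM in every library, and for lincRNAs it was 20.3%, 1.70%, 9.91% and 4.86%. Families whose leader held over 50% made up 37.9% by counts, 42.5% by median FPKM and 69.2% of 3084 groups of identical descriptions, beside 41.4% as reported. With the patterns as first written, before 22 were edited and 8 were added, they made up 35.0%. This comparison was chosen after seeing the data. The mean correlation of library pairs was 0.921 with a pseudocount of 0.1, 0.977 with no filter and 0.912 above 10 FPKM. The count of varying genes was 429 at a range of 2 and 957 above 10 FPKM, this threshold also chosen after seeing the data. With each library left out in turn, the top 10 held 3.11% to 3.21%, the top 1000 held 48.2% to 48.4%, lincRNAs were expressed at 6.28% to 6.64%, leaders held over 50% in 42.5% to 44.8% of families, the correlation was 0.931 to 0.954 and 1113 to 1871 genes varied. The leading gene of 71 of 87 families was the same by counts, of 78 by median FPKM and of 81 or 82 with a library left out. The cause of these shifts was not tested. Precision was lowest for genes of 1 to 10 FPKM, which had the largest CV, 22.9% at the median.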

Other observations

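In 3 genes with a mean of at least 10 FPKM a library held no count. Zm00001d002318, a protein-coding gene of chromosome 2 with no description, had 0 counts in DI-1, 3564 in DI-2 and 8312 in DI-3. A dirigent protein gene (Zm00001d016189), of a family that guides lignan and lignin coupling, had 741, 87 and 0 counts. The lincRNA Zm00001d027021 had 0, 1619 and 1 counts, and lies inside the annotated span of another lincRNA, Zm00001d027020, which had 56.9, 46.4 and 94.8 FPKM. A few other lincRNAs differed as sharply, among them Zm00001d000526 with 79.8, 2.26 and 124 FPKM and Zm00001d001264 with 68.3, 48.9 and 0.01 FPKM. These genes were chosen after their values were seen.

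Benzoxazinoid enzymes, which make the defence compounds of young maize, were measured for 14 genes, of which 12 were expressed. Benzoxazinone synthesis10 (Zm00001d029359) led with 479, 437 and 547 FPKM, followed by benzoxazinone synthesis9 (Zm00001d031209) with 298, 387 and 353 FPKM. The first committed enzyme, benzoxazinless1 (Zm00001d048709), had 0.36, 0.92 and 0 FPKM.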
